A study of Mus musculus with 2 samples.

Results

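Ctnnb1, Apc, Axin1, Axin2, Gsk3b, Dvl1, Tcf7l1, Tcf7l2, Lef1 and Lrp6 encode the core of the Wnt/β-catenin pathway, and each was searched for R-loop peaks. The genes were chosen by name, as 10 of the 22367 protein-coding genes and of the 37273 genes of all kinds on chromosomes 1 to 19, X and Y of the GENCODE M1 annotation of the mouse genome NCBI37/mm9. A peak was counted for a gene when it overlapped the annotated gene or lay within 2 kb of it, which gave 53 of the 22132 peaks. The peaks came from DRIP-seq, which sequences the restriction fragments that the S9.6 antibody, specific for RNA:DNA hybrids, pulls out of digested genomic DNA. Primary neural stem/progenitor cells (NSPCs) were cultured from the frontal brain of C57BL/6 mice at postnatal day 7. By the study's methods, not the labels, they received 0.5 μM aphidicolin, an inhibitor of replicative DNA polymerases, for 48 h, and no untreated cells were compared here. The labels name 1 DRIP sample, represented by 1 peak list, and 1 input sample, DNA without the pull-down, which was not analysed here.

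In the canonical Wnt pathway, a secreted Wnt protein binds a Frizzled receptor and its coreceptor of the LRP family at the cell surface, and Dishevelled proteins carry the signal into the cell. Without Wnt, a destruction complex built on Axin and Apc lets the kinase Gsk3b phosphorylate β-catenin, which is then degraded. With Wnt, β-catenin accumulates, enters the nucleus and binds TCF/LEF transcription factors at target genes, and in the brain the pathway regulates the proliferation and fate of neural progenitors. An R-loop is a hybrid of RNA with the template DNA strand that leaves the other strand single, and it is favoured where that other strand is rich in G.

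Peaks were found at 9 of the 10 genes, all but Lef1. A peak within 2 kb was present at 43.1% of all protein-coding genes, and at 53.9% of the 11608 protein-coding genes whose length lay between those of the shortest and the longest of the 10 genes, 11.9 and 192 kb. The median number of peaks was 3.50 for the 10 genes, compared with 0 for all protein-coding genes and 1 for those of comparable length. The median share of a gene's bases covered by peaks was 11%, compared with 0 and 0.294%. Tcf7l2 had 12 peaks, Apc 11 and Gsk3b 11, and genes with at least 10 peaks made up 0.465% of those of comparable length. As a share of gene length, peaks covered 62.5% of Axin2 and 39.2% of Ctnnb1 but 16.4% or less of each of the others, while in kb the most covered was Tcf7l2, with 31.4 kb. The 10 genes were long, with a median of 108 kb against 33.3 kb for the genes in the range of length, so each was also set beside genes of 0.5 to 2 times its own length. All these backgrounds include genes whatever their transcription in NSPCs, which was not compared here. The study reports that nearly all genes with peaks were transcribed or of ambiguous activity. The part of transcription in these differences was not tested. The list holds positions alone, with no read count or score and no replicate values. No error, interval or test of a difference could therefore be given, and the order of the genes could not be set against a spread between replicates.

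**Figure D1:**
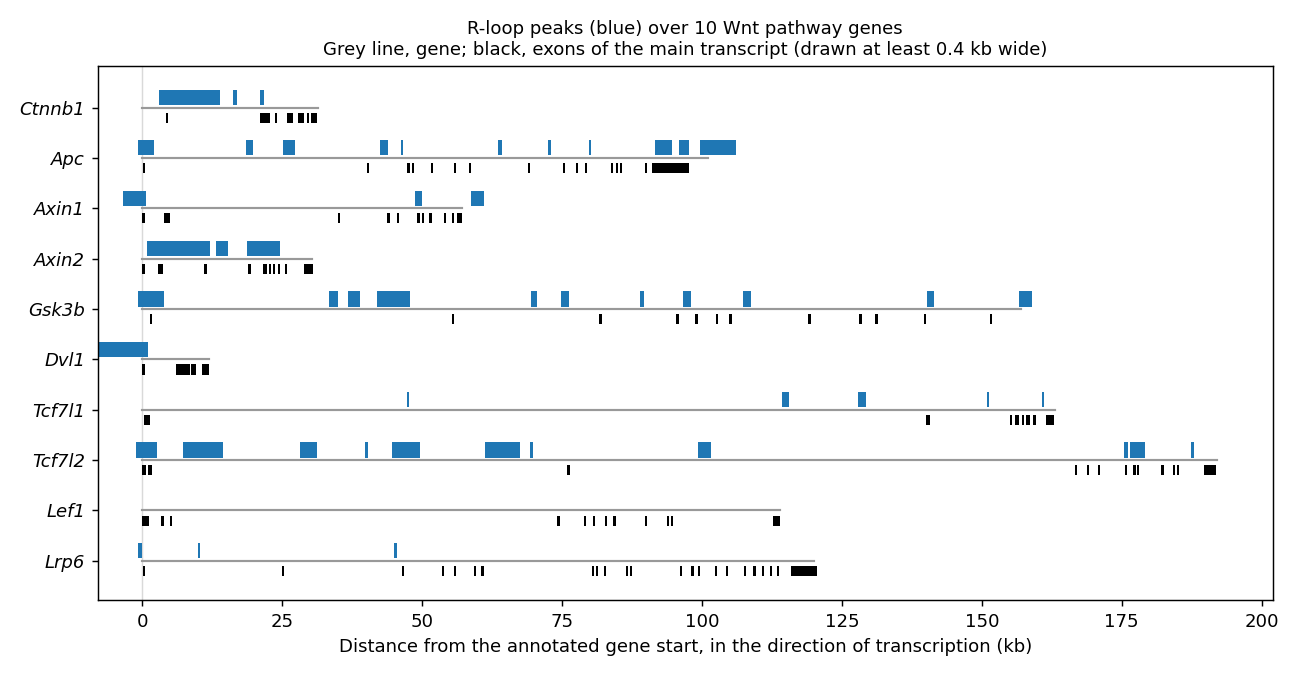
Position of the 53 R-loop peaks (blue) along the 10 Wnt pathway genes (grey lines), aligned at the annotated gene start and drawn in the direction of transcription, with distance from the start in kb on the horizontal axis. Black marks are exons of the transcript with the longest coding sequence; Tcf7l2, Apc and Gsk3b carry 11 or 12 peaks spread along the gene, Axin2 and Ctnnb1 each have a peak over 10 kb wide near the start, and Lef1 has none.

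Sequences were read from the mm9 genome to show chosen parts of the peaks. Strand asymmetry is expressed as GC skew, the number of G minus the number of C on the gene's coding strand, over the number of both, so that positive values mean more G. For 5 of the genes, the stretch of 60 bp is shown in which G most outnumbers C on that strand, outside exons, within the widest peak, and capitals mark runs of at least 3 G. The Ctnnb1 stretch, at chr9:120843261-120843320 on the plus strand, has 38 G and 8 C. That of Axin1, at chr17:26276259-26276318 on the plus strand, has 33 G and 6 C. In Axin2, the stretch at chr11:108785880-108785939 on the plus strand has 39 G and 6 C. The stretch of Tcf7l2, at chr19:55829780-55829839 on the plus strand, has 35 G and no C, and most of it is a repeat of the triplet GGT. The Lrp6 stretch, at chr6:134517264-134517323 and shown on the minus strand on which the gene lies, is the only one upstream of its gene and has 30 G and 18 C. Because the stretches were picked for their excess of G, they do not describe the whole peaks. Over the whole widest peak, the skew was 0.0344 in Ctnnb1, 0.0269 in Axin1, 0.0510 in Axin2 and 0.174 in Tcf7l2. The whole Lrp6 peak had more C than G, with a skew of -0.0952.
Ctnnb1: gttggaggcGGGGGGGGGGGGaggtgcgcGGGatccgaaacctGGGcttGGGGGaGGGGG
Axin1: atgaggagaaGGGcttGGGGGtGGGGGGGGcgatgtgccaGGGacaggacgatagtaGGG
Axin2: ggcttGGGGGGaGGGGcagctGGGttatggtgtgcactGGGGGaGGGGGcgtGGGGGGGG
Tcf7l2: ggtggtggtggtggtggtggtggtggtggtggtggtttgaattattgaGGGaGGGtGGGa
Lrp6: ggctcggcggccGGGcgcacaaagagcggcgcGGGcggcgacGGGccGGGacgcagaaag

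Lrp6, the coreceptor that is phosphorylated when Wnt binds, had 3 short peaks. The gene (ENSMUSG00000030201) occupies chr6:134396494-134516983 on the minus strand. One peak of 745 bp, chr6:134517058-134517802, lay wholly upstream and ended 75 bp before the gene start, and the others were 462 and 515 bp wide in introns 1 and 2. They covered 0.811% of the 120 kb gene, and 25.8% of the 3339 genes of 0.5 to 2 times its length had as many peaks. The upstream peak was the one at these genes with the highest ratio of observed to expected CpG, 1.06. None of the 3 peaks reached 1 kb, so the count fell to 0 when shorter peaks were left out. The 100 bp before the Lrp6 start, chr6:134516984-134517083 on the minus strand, are shown because this short peak begins within them, and capitals mark CpG.
Lrp6 upstream: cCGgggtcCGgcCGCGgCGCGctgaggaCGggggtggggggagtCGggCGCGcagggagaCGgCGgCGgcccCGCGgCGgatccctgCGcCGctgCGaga

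Dvl1, which encodes a Dishevelled protein that relays the signal from the receptors, had 1 peak over its start. It is the shortest of the genes, with 11.9 kb at chr4:155221511-155233412 on the plus strand (ENSMUSG00000029071). The peak, chr4:155213549-155222521, was 8.97 kb wide and lay mostly upstream, with 1010 bp inside the gene, so that it covered 8.49% of Dvl1. It also overlapped Mxra8, which encodes a cell surface protein, and the predicted gene Gm10562. DRIP-seq of this kind does not record the strand, and the peak could not be assigned to any single one of these genes. The count for Dvl1 was 0 when the midpoint of the peak, or at least 50% of its width, had to fall in the window. Of the 7140 genes of similar length, 44.8% had a peak.

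Axin1, the scaffold that limits assembly of the destruction complex, had 3 peaks, of which 2 touched the gene. Axin1 (ENSMUSG00000024182) occupies chr17:26275631-26332756 on the plus strand. A peak of 4.17 kb, chr17:26272182-26276346, covered the start and the first 715 bp, a peak of 1.19 kb covered exon 6 and part of exon 7, and between them 48.1 kb held none. The third, 2.32 kb wide, lay past the gene end and overlapped Arhgdig and Pdia2, which encodes a protein disulfide isomerase. Peaks covered 3.33% of Axin1, and 19.3% of genes of similar length had as many peaks.

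Axin2, a scaffold like Axin1 and also a target gene that the pathway switches on, was the most covered of the 10 genes. It is found at chr11:108781663-108812097 on the plus strand (ENSMUSG00000000142). Its 4 peaks covered 19 of 30.4 kb, or 62.5%, and 1.24% of the 7235 genes of similar length were covered to that extent. The widest, 11.2 kb at chr11:108782476-108793685, began 813 bp after the gene start and contained exons 2 and 3 of the main transcript. It also held the starts of the shorter protein-coding transcripts Axin2-002, Axin2-004 and Axin2-006, whereas the gene start itself, which is also the RefSeq start, lay outside. A second peak of 2.22 kb lay in intron 3. The remaining peaks, 5.41 kb and 179 bp wide, were separated by 1 bp and together overlapped exons 4 to 9, and the wider of them overlapped Gm11670. The list holds 305 such pairs of peaks no more than 1 bp apart, and another was in Tcf7l2.

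The widest Axin2 peak held 9 matches to CTTTGAT, the core of the sequence bound by TCF/LEF factors, searched on both strands. Of the 429 peaks of at least 10 kb in the list, 3 (0.699%) held as many, and the median over these 429 peaks was 1 match. Of the 9 matches, 5 are shown with 20 bp on each side, on the plus strand, which is the coding strand, and capitals mark CTTTGAT or its reverse complement ATCAAAG. Each is named by its distance from the gene start. In order, the windows are chr11:108782526-108782572, chr11:108783710-108783756, chr11:108784366-108784412, chr11:108788793-108788839 and chr11:108793438-108793484, and the 3 nearest the gene start lie within 1 kb upstream of a start of one of the shorter transcripts.
Axin2 0.883 kb: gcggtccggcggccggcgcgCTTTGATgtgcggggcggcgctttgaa
Axin2 2.07 kb: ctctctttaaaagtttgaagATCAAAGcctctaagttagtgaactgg
Axin2 2.72 kb: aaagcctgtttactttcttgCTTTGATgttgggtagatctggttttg
Axin2 7.15 kb: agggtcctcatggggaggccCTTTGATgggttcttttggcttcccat
Axin2 11.8 kb: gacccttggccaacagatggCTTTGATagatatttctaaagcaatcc

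A match is a stretch of letters and not a measured binding site. Across all 53 peaks at the Wnt genes, 11 (20.8%) held CTTTGAT, compared with 21.2% of all peaks, so the peaks at these genes did not carry the motif more often than the list. Per 10 kb of peak, the matches numbered 1.76 at the Wnt genes and 1.29 in the list, and 9 of the 23 matches at the Wnt genes were those of Axin2. The related sequence CTTTGAA was present in 21 peaks (39.6%), compared with 27.5% of all peaks. In the 1 kb before the gene start, Lrp6 alone among the 10 genes held CTTTGAT, whereas 14.2% of all protein-coding genes did. No match in such a window says only that these letters are not in it.

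Gsk3b, the kinase that marks β-catenin for degradation, had 11 peaks along 157 kb and was 1 of 2 genes with peaks over both its start and its end. Its position is chr16:38089087-38246170 on the plus strand (ENSMUSG00000022812). The start lay in a peak of 4.63 kb, chr16:38088375-38093005, which contained the starts of both protein-coding transcripts, and the end in a peak of 2.32 kb, chr16:38245794-38248115. That end belongs to Gsk3b-001, since Gsk3b-003 stops earlier, outside any peak. The 9 peaks between were all in introns and held no exon base, with 3 of them in intron 1, the widest of which was 5.97 kb. Peaks covered 13.5% of the gene, and of the 2647 genes of similar length 62 (2.34%) had as many peaks.

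Apc, the tumour suppressor that binds β-catenin within the destruction complex, also had 11 peaks, and these included its start, its last exon and its annotated end. The gene (ENSMUSG00000005871) spans 101 kb of the plus strand, chr18:34380578-34481843. Of 3847 genes of similar length, 33 (0.858%) had as many peaks, the lowest share among the 10 genes. A peak of 2.85 kb covered the start and overlapped Gm10548. Exon 16, which holds most of the coding sequence, contained 2 peaks of 3.17 and 1.67 kb that consisted of exon sequence alone. The widest peak, 6.52 kb, covered the end of the longest transcript, Apc-201, and reached 106 kb from the start. The main transcript, Apc-001, ends earlier, 97684 bp from the gene start, outside any peak. The other 7 lay in introns of the main transcript. One of them, 2.31 kb wide, held the start of the protein-coding transcript Apc-005, and another, 1.41 kb wide, held 293 bp of exon of other transcripts. A peak of 1187 bp in intron 1 had the highest GC skew of all peaks at these genes, 0.798, with 553 G and 62 C on the coding strand. With peaks shorter than 1 kb left out, 7 peaks remained at Apc.

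Ctnnb1 encodes β-catenin, the protein that the pathway stabilises, and peaks covered 12.3 of its 31.3 kb, or 39.2%. Ctnnb1 (ENSMUSG00000006932) occupies chr9:120838334-120869625 on the plus strand. Nearly all of the coverage came from a peak of 10.8 kb, chr9:120841353-120852178, that held exon 1 and much of intron 1 of the main transcript. The annotated gene start lay 3019 bp before this peak, but it belongs to Ctnnb1-004, and the start of the main transcript Ctnnb1-001, which lies 4184 bp further into the gene, was inside the peak. Both RefSeq starts of Ctnnb1, at 120842518 and 120842696, were inside it too. The other 2 peaks, 747 and 682 bp wide, lay in intron 1 and over exon 3 and most of exon 2, so that 1 peak remained when a width of at least 1 kb was required. As many peaks were present at 14.1% of the 7176 genes of similar length, and a coverage as high at 4.26%.

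The first 1 kb of the annotated gene had a GC content of 43.4% at Ctnnb1, the lowest of the 10 genes, whereas the first 1 kb of Ctnnb1-001 had 71.9%. The GC skew was 0.0922 and 0.188 in these windows.

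Among the transcription factors that recruit β-catenin, Tcf7l2 had the most peaks of all 10 genes, Tcf7l1 had few and narrow ones, and Lef1 had none. Tcf7l2 (ENSMUSG00000024985), 192 kb long at chr19:55816300-56008144 on the plus strand, held 12 peaks that covered 31.4 kb or 16.4% of the gene. Of 2159 genes of similar length, 51 (2.36%) had as many peaks and 2.87% as high a coverage. A peak of 3.64 kb, chr19:55815241-55818881, contained the start and exons 1 to 3. The next 7 peaks all lay in intron 3 and included the widest, of 6.40 and 6.28 kb, and after the peak in intron 4 there were 73.9 kb without a peak. The second RefSeq start, 153511 bp into the gene, lay in that stretch, 21876 bp from the nearest peak. Of the 12 peaks, 7 were at least 1 kb wide, while Gsk3b had 10 of that width and Apc 7. With peaks closer than 1 kb merged, Tcf7l2 had 10 and Apc and Gsk3b 11 each. The first rank of Tcf7l2 thus depended on how peaks were counted.

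Tcf7l1, which represses targets in the absence of β-catenin, had 5 peaks of 0.244 to 1.40 kb, all of them in introns. Its position is chr6:72576372-72739248 on the minus strand (ENSMUSG00000055799). The peaks covered 2.42% of its 163 kb, and the one closest to the gene start lay 47303 bp into the gene. Upstream, the nearest peak was 30848 bp from the gene start and 31057 bp from the RefSeq start, too far away to be counted for Tcf7l1. Only 2 of the 5 were at least 1 kb wide, and 14.0% of genes of similar length had as many peaks. The peak nearest the gene end, chr6:72578071-72578519, had the lowest GC skew at these genes, -0.535. It is shown beside a Tcf7l2 intron peak of similar width, chr19:55885609-55886086, whose skew was 0.422. In the Tcf7l1 run, chr6:72578355-72578414 on the minus strand, capitals mark runs of at least 3 C, and 31 C stand against no G. In the Tcf7l2 run, chr19:55885841-55885900 on the plus strand, capitals mark runs of at least 3 G, and 30 G stand against 2 C. Both are largely dinucleotide repeats, of CA in the first and of GT in the second.
Tcf7l1 intron 12: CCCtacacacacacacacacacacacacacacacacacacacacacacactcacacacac
Tcf7l2 intron 3: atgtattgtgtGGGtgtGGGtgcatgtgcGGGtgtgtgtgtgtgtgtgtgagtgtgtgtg

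Lef1, the TCF/LEF factor that acts mainly as an activator, spans 114 kb of the plus strand at chr3:130813389-130927274 (ENSMUSG00000027985) and held no peak. Among the 3531 genes of similar length, 61.0% had at least 1. The nearest peak, 1205 bp wide at chr3:130930867-130932071, lay 3593 bp past the gene end and overlapped no annotated gene, so that a window of 5 kb in place of 2 kb gave Lef1 a count of 1. Of its 4 RefSeq starts, the closest to a peak was 71655 bp away from it. The first 1 kb of Lef1 had a GC content of 60.9% and a GC skew of -0.0673. A gene without a peak may have had signal below the caller's threshold, and the depth behind the list is unknown.

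**Figure D2:**
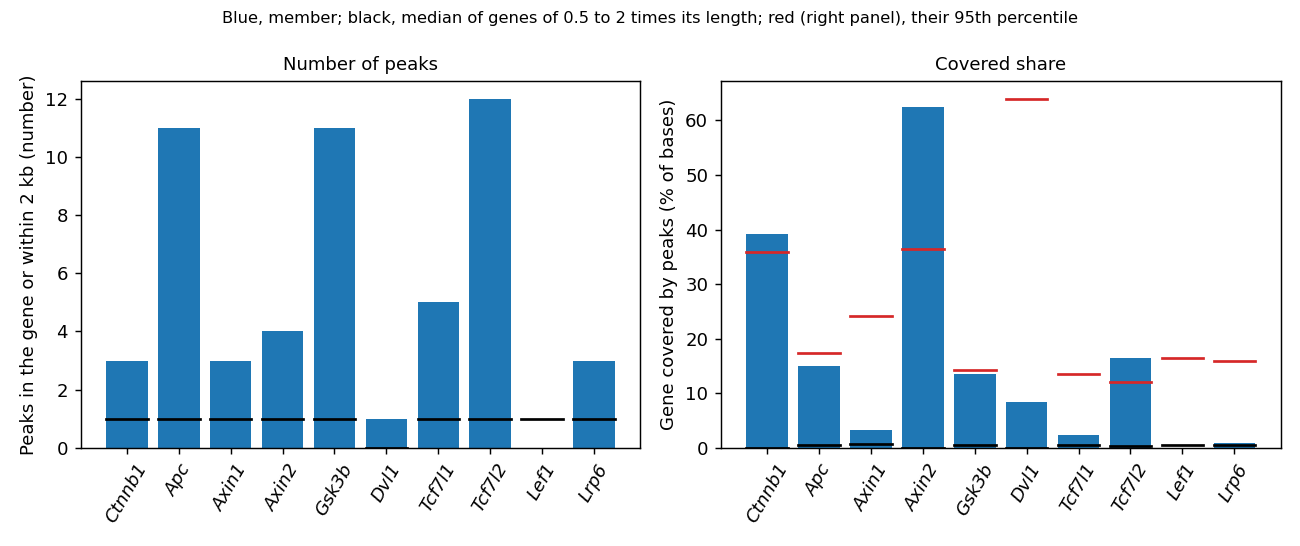
Number of R-loop peaks in each gene or within 2 kb of it (left) and percent of the gene's bases covered by peaks (right), 1 value a gene from the single list, with no error. Black lines give the median of protein-coding genes of 0.5 to 2 times the gene's length and red lines, in the right panel, their 95th percentile; Axin2, Ctnnb1 and Tcf7l2 lie above the red line.

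The annotated gene start lay in a peak for 5 of the 10 genes, Apc, Axin1, Gsk3b, Dvl1 and Tcf7l2. The same held for 14.9% of all protein-coding genes and 16.6% of those in the range of length. With the start of any protein-coding transcript counted, Ctnnb1 and Axin2 joined them, for 7 of 10. The annotated gene end lay in a peak for 2 of the 10, Apc and Gsk3b, compared with 10.9% of all protein-coding genes.

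Bases around the starts were rich in G and C at most of the genes. The median GC content of the first 1 kb was 66.7%, compared with 53.4% over all protein-coding genes, and ranged from 43.4% in Ctnnb1 to 70.4% in Axin2. The median GC skew of this window was 0.0676, compared with 0.0390, and it was positive in 8 of the 10 genes (80.0%) and in 64.9% of all protein-coding genes. For protein-coding genes in the range of length, the median GC content was 55.0%, the median skew 0.0516 and the share with positive skew 71.5%. Among the 10 genes, the highest skew was that of Axin1, 0.211, whose start lay in a peak. The lowest was that of Tcf7l2, -0.111, whose start lay in a peak too. Lef1, with no peak, was the other gene with a negative value. Thus the genes whose start lay in a peak had a median skew of 0.0636 and the other 5 a median of 0.0922. The 0.0922 is the value of Ctnnb1 at its annotated start, whereas the start of Ctnnb1-001, with a skew of 0.188, lay in a peak. With Ctnnb1 alone counted by that start, the order of the medians reverses. With 5 genes on each side and windows that depend on the annotated start, the order is a description only. Over all protein-coding genes, the median was 0.0649 with the start in a peak and 0.0345 without. The 100 bp before the starts of Tcf7l2, with 26 G and 40 C, and of Lef1, with 35 G and 36 C, are shown because these were the genes with negative skew, 1 with its start in a peak and 1 without, at chr19:55816200-55816299 and chr3:130813289-130813388 on the plus strand, with CpG in capitals.
Tcf7l2 upstream: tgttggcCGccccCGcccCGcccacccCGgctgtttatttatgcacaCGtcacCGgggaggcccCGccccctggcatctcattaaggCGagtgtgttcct
Lef1 upstream: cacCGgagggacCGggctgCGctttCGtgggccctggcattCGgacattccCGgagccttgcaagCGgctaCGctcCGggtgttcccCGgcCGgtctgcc

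**Figure D3:**
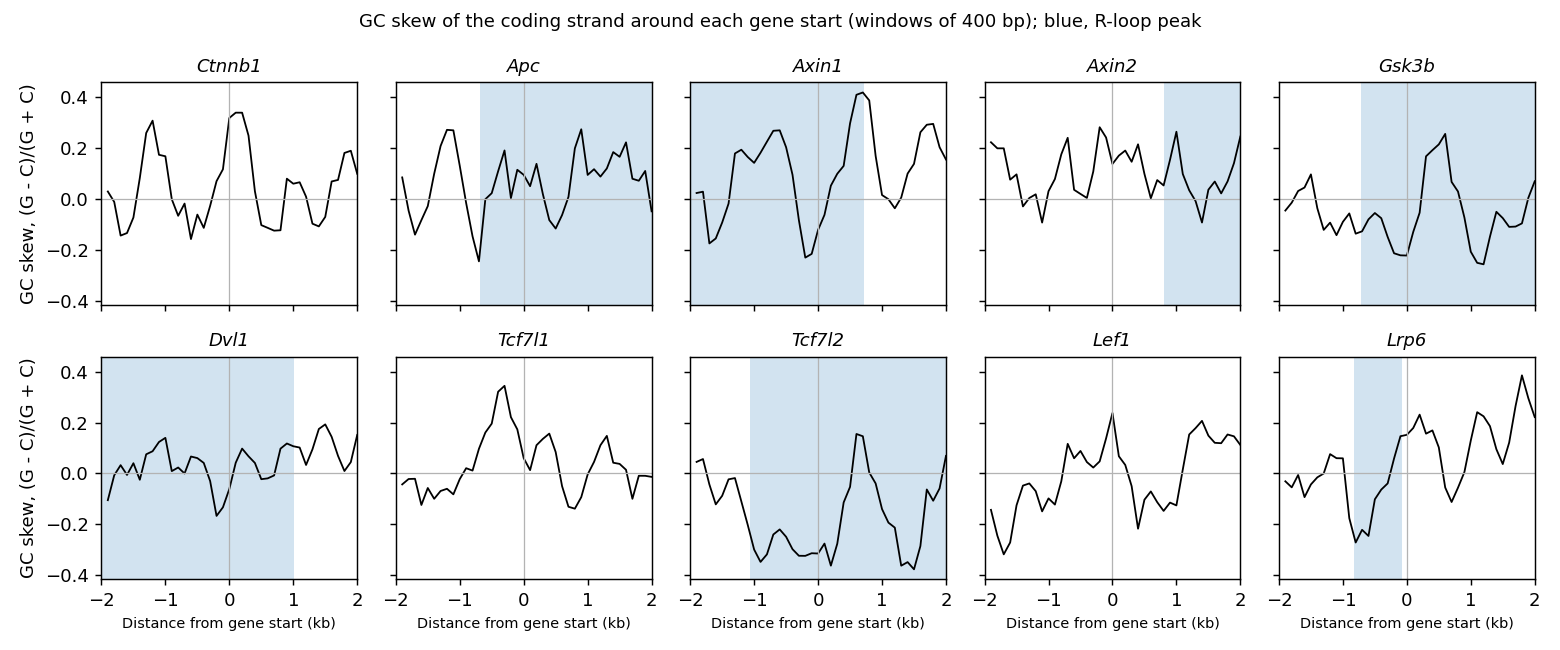
GC skew of the coding strand, (G - C)/(G + C), in windows of 400 bp from 2 kb upstream to 2 kb downstream of each annotated gene start, with R-loop peaks shaded. The start lies in a peak at Apc, Axin1, Gsk3b, Dvl1 and Tcf7l2, and the curve of Tcf7l2 runs below 0 over most of its peak; the start of the main Ctnnb1 transcript lies outside the plotted range.

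The 53 peaks covered 131 kb and had a median width of 1.40 kb, compared with 1.32 kb for the list. A width of at least 5 kb was reached by 8 of them (15.1%, compared with 9.85% of all peaks) and one of at least 10 kb by 2 (3.77%, compared with 1.94%), those of Ctnnb1 and Axin2. By the position of the midpoint, 33 peaks (62.3%) were intronic, 8 lay at annotated transcript ends, 7 in promoters, 2 in coding exons, 1 in a noncoding exon and 2 between genes. In the list, 48.8% were intronic and 23.2% between genes, and a choice of peaks by their nearness to genes leaves few of the latter. Several of the promoters and ends were those of short transcripts inside Apc, Gsk3b or Tcf7l1, far from the ends of the gene. No exon base was present in 33 of the peaks. The GC content had a median of 49.3%, compared with 48.7% in the list. Of the 44 peaks wholly inside 1 of the genes, 29 (65.9%) had more G than C on the coding strand, compared with 64.8% of the 12233 peaks in the list that lay wholly inside protein-coding genes of 1 strand, and their median skew was 0.0392, compared with 0.0398.

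The DNA was digested with 5 restriction enzymes before pull-down, which can set where peaks end. A site of these enzymes was within 100 bp of 31 of the 106 edges (29.2%), compared with 28.7% of edges in the list. The share for positions chosen without regard to peaks was not computed, so whether sites set these edges was not tested. Sites were spaced on average from 500 bp in Gsk3b to 1171 bp in Axin2, which was also the gene with the highest coverage, and the part of site spacing in the coverage was not tested. The 10.8 kb peak of Ctnnb1 contained 13 sites and the 11.2 kb peak of Axin2 contained 7, while 26 of the 53 peaks contained none.

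Of 85 other genes of the pathway, grouped by role, 47 (55.3%) had a peak within 2 kb. The share was 43.1% for all protein-coding genes and 53.9% for those of 11.9 to 192 kb. The start lay in a peak for 19 of the 85, compared with 14.9% of all protein-coding genes and 16.6% of those of 11.9 to 192 kb. The median length was 25.2 kb for the 85 genes and 15.4 kb for all protein-coding genes. Peaks were most frequent among the genes for nuclear partners, 9 of 11, and for cytoplasmic components, 12 of 15. They were least frequent among secreted antagonists with their coreceptors, 3 of 13, and in the group called ligand release, 0 of 3. The last group includes Notum, which inactivates Wnt. These groups also differed in gene length, with medians of 26.5, 29.1, 9.89 and 12.7 kb. The other roles were targets (3 of 4, median length 7.46 kb), receptors (6 of 11, 4.80 kb), receptor turnover (6 of 9, 96.6 kb) and ligands (8 of 19, 22.2 kb). The part of length, or of transcription, in these shares was not tested.

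**Figure D4:**
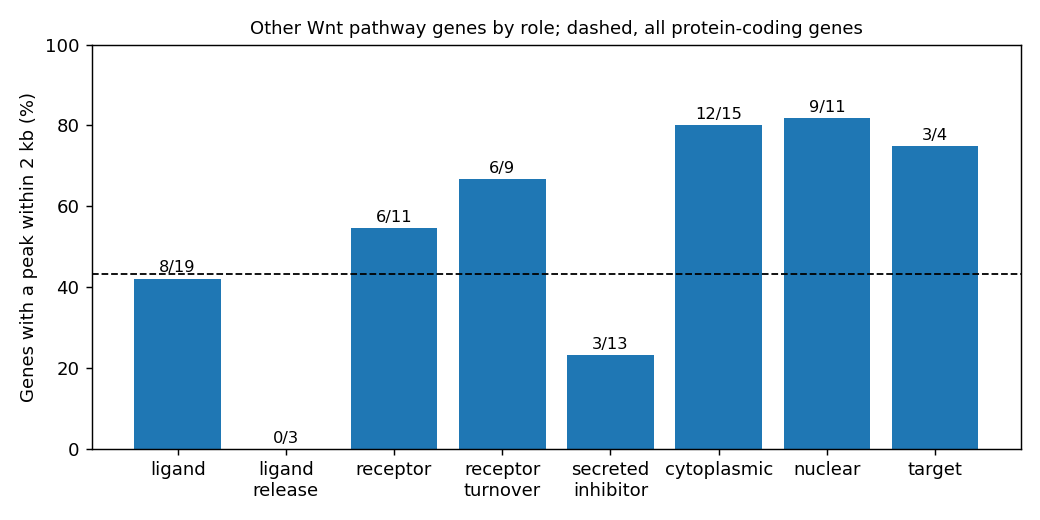
Percent of other Wnt pathway genes with an R-loop peak within 2 kb, by role, with the number of genes with a peak over the number in the role above each bar. The dashed line is the 43.1% of all protein-coding genes. Cytoplasmic and nuclear components, targets, receptor turnover and receptors lie above it and ligands (42.1%) just below. Secreted inhibitors and ligand release, a group that includes Notum, lie further below.

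Inside the cell, Tnks2 and Tnks, which encode the tankyrases that mark Axin for degradation, had 5 and 4 peaks, and Btrc, which encodes the F-box protein that binds phosphorylated β-catenin, had 3. Amer1 (Fam123b in the annotation), Apc2 and Nkd2 had none. Among nuclear partners, Bcl9, a coactivator that binds β-catenin, had 3 peaks, and Ctnnbip1, an inhibitor of its binding to TCF factors, and Pygo2, which binds Bcl9, had 2 each, whereas Bcl9l and Cby1 had none. The close relatives of the 10 genes were looked up after the values had been seen. The start of Dvl2, like that of Dvl1, lay in a wide peak, of 10.2 kb, while a peak of 8.26 kb covered 53.1% of Dvl3 without its start. Gsk3a had 1 peak of 0.822 kb over its start, and Tcf7, the remaining TCF/LEF gene, had 2 peaks.

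At the cell surface, Lrp5, the relative of Lrp6, had 4 peaks, Fzd7 had 3 and Fzd1 had 1, whereas Fzd2, Fzd3 and Fzd4 had none. Peaks covered 59.1% of Fzd1 and 84.9% of Fzd7, and, as seen after the values were known, 98.7% of Fzd8 and 82.8% of Fzd10, and the start of each of these 4 short genes lay in a peak. Other short Frizzled genes differed, since a peak covered 16.5% of Fzd9 without its start, and Fzd2 had none. Of the genes for receptor turnover, 6 of 9 had a peak, with 4 at Znrf3, which encodes a ubiquitin ligase that removes Frizzled receptors, 3 at Lgr6 and 1 at Lgr4, receptors for R-spondins, and none at Rspo1, Rspo2 or Rspo3. Of 19 Wnt genes, 8 had a peak, with 5 at Wnt7b, 3 at Wnt2b and 2 at Wnt5b, and Wnt1, Wnt10b and Wnt11 were among the 11 without.

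Porcn and Wls, needed for Wnt lipidation and secretion, and Notum, which inactivates Wnt, had no peak. Among the secreted antagonists and their coreceptors, Kremen1 had 3 peaks, Wif1 2 and Dkk3 1, and Dkk1, Dkk2 and Dkk4 were among those without. Of 4 target genes other than Axin2, Tnfrsf19 had 4 peaks, Ccnd1 3 and Myc 1, and Sp5 had none.

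The label of the cells was set against marker genes, although a peak does not measure expression. Of 8 markers of neural stem/progenitor cells 5 had a peak (Sox2, Nes, Vim, Sox9 and Olig2, but not Pax6, Fabp7 or Prom1), compared with 1 of 5 of neurons, 1 of 4 of microglia, 1 of 3 of oligodendrocytes and 1 of 2 of endothelium. A peak was present at 43.1% of all protein-coding genes, and counts this small cannot be told apart from that share.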

How the data were processed

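Per the labels and the study's methods, genomic DNA was digested with 5 restriction enzymes (EcoRI, HindIII, BsrGI, SspI and XbaI) and RNA:DNA hybrids were recovered with the S9.6 antibody, in 3 biological replicates with 3 DRIP reactions pooled for each library. Reads had been trimmed (Trim Galore 0.6.6 in the submitters' processing notes), mapped to mm9 and stripped of duplicates, and a peak caller based on a Hidden Markov Model was then run. The authors deposited 1 list of peak positions in base pairs, without counts or scores. How the replicates entered that list, the aligner and its version are not given in the sources used here, so the depth is unknown and no error, interval or p-value was computed.

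Positions were compared with GENCODE M1 on mm9 in Python 3.11.15 with numpy 2.4.6 and pysam 0.24.0, and plotted with matplotlib 3.10.9. An overlap counted from 1 bp, and a peak shared by genes counted for each. A promoter was the 1 kb before a transcript start plus 100 bp after it, and a termination site the last 100 bp of a transcript plus the following 1 kb. RefSeq starts (promoters of a later build) of 7 of the genes were placed on mm9 by exact match of their promoter sequence. Counting was tested on simulated data, where 200 of 200 peaks planted at starts of the 724 genes used on chromosome 19 were recovered. Other gene windows, overlaps, peak widths, merging, start definitions, skew windows and motifs were tried as alternatives.

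All 10 genes are named, as are, for each role of the other pathway genes, up to 3 with the most peaks and up to 3 with none (ties in alphabetical order), and genes sharing a peak with the 10. Genes outside this rule are marked in the text as looked up later. The 10 genes and the lists were chosen with earlier results of these data known. The input sample was not used.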

Additional observations from a re-analysis of the deposited data

How the results depend on the processing

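Of 46 alternatives for the values over all 10 genes or their backgrounds, 40 stayed within 1.5 times the value reported. These include background values, among them a median coverage of 0 that stayed 0. None changed sign, but only GC skew could have done so, since the other values are counts or percentages. Keeping only peaks of at least 1 kb lowered the peaks at the 10 genes from 53 to 34 and the intronic midpoints from 33 to 19. The median GC skew at the start was 0.108 over the first 500 bp. With CTTTGAA as the motif 21 peaks held a match, and with either motif 27. Within 20 bp, 6 edges were near a restriction site. For single genes, 52 of 60 alternatives stayed within 1.5 times. The exceptions are given with Ctnnb1, Apc, Tcf7l1, Tcf7l2, Lrp6, Dvl1 and Lef1. These changes follow from fewer or other peaks, bases or distances being counted. No paired analysis was possible because the data hold 1 list with no replicate columns and no test was made. Depth limits the counts to an unknown extent, since the list carries no reads.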
